A study of Mus musculus with 23 samples.

Results

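The nuclear-encoded subunits of respiratory complexes III and IV, cytochrome c and the mitochondrial ATP synthase were examined in colon of mice on a control or a heme diet. Members were chosen by function, as a list of 37 genes, and found by gene number among the probe sets of the array, with the brightest probe set taken for a gene with more than 1. Of the 37 genes, 35 had a probe set of their own and entered the tests, among 18820 genes in all. These were 8 of 9 complex III genes, cytochrome c (Cycs), 10 of 11 complex IV genes, the supercomplex factor Cox7a2l and all 15 ATP synthase genes. Uqcrc2 and Cox7c lay on probe sets that also name another gene, and are given apart without a call. Symbols of the 37 genes are those of this list, in which Atp5f1 stands for the gene now named Atp5pb. RNA of 23 male mice was hybridised to Affymetrix Mouse Gene 1.1 ST arrays, 1 array per mouse on a single plate. There were 5 WT mice on the control and 6 on the heme diet, and 6 KO mice on each, aged 7 to 9 weeks at the start and fed for 14 days. All mice received a high-fat diet in which fat gave 40% of the energy and calcium was 30 µmol per g, and the heme diet added 0.5 µmol heme per g. The WT strain was 129S1/SvImJ, whereas KO mice, which carry a disrupted Ppara gene, were 129S4/SvJae-Pparatm1Gonz/J, so that genotype and substrain cannot be told apart. The disruption is a germline one, so all cells carry it, and mucosal scrapings of the proximal and distal colon were pooled per mouse. The study excluded 1 WT control array because of its quality.

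Complex III passes electrons from ubiquinol to cytochrome c, complex IV passes them on to oxygen, and both move protons across the inner mitochondrial membrane. The ATP synthase lets these protons flow back through its membrane part, which turns a ring of c subunits and drives ATP synthesis in its F1 head. Complexes III and IV and cytochrome c carry heme themselves, and colonocytes depend on this chain to oxidise butyrate and other fatty acids.

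Values are linear signals, that is the antilog of the deposited log2 values, and have no unit. Any pair of arrays correlated at 0.9825 to 0.9952. Ppara had a signal of 444, 463, 471, 539 and 560.2 in WT control mice, 344 to 474.5 (median 418) in WT heme mice, 240.0 to 378 (median 313.5) in KO control mice and 163 to 238 (median 193) in KO heme mice, so that KO mice lay below WT mice on each diet. Whether this probe set covers the disrupted stretch was not determined. The summed signal of 10 colonocyte markers, among them Epcam and Krt8, was 45500 to 54600 over all mice. Their mean log2 level, relative to WT control mice, was -0.07 to 0.08 in WT control and 0.11 to 0.21 in WT heme mice, and 0.01 to 0.07 in KO control and 0.10 to 0.30 in KO heme mice. It was thus higher in every heme-fed mouse than in every control mouse of its genotype, as was the mean level of the subunit genes, and its part in the results was not tested. Single colonocyte markers differed, with log2 fold changes of -0.18 to 1.12 in WT mice and -0.24 to 1.13 in KO mice. In each genotype 6 lay above 0 and 4 below, with a median of 0.04. Smooth muscle markers differed between groups and within WT control mice. The summed signal of 14 such markers was 7010 to 20000 in WT control, 4130 to 6280 in WT heme, 3940 to 9830 in KO control and 3720 to 6370 in KO heme mice. On the heme diet 11 of these 14 markers fell in WT mice and 1 in KO mice (median log2 fold change -1.10 and -0.41), and their part in the results was examined by a covariate and by leaving out arrays. WT control replicates 1 and 2 stood apart, with a mean log2 level of these markers of 0.53 and 0.87, against -0.60 to -0.31 in the other 3 WT control mice. WT control replicate 3 was lowest of its group for fibroblast markers (mean log2 level -1.14, against 0.01 to 0.59 in the other mice). It was also lowest for leukocyte markers (-0.30, against 0.04 to 0.11). Of the other marker lists, 3 of 10 colonocyte markers rose and 2 fell in each genotype, 2 of 6 goblet cell markers fell in WT mice, and 1 rose and 3 fell in KO mice. Of 10 leukocyte markers 1 fell in each genotype, of 5 enteric nerve markers 1 fell in WT mice and 1 rose in KO mice, and 0 of 7 fibroblast and 0 of 4 fat markers passed the limma test. By the same test 9.60% of all genes rose and 8.29% fell in WT mice, and 9.23% rose and 9.20% fell in KO mice. The leukocyte counts, and that of smooth muscle markers in KO mice, are near these shares. At an unadjusted p under 0.05 there were 3 fibroblast markers in each genotype, and 1 fat marker in WT and 0 in KO mice, against 37.2% and 37.9% of all genes. In such tissue samples fewer cells of a type and less RNA per cell cannot be told apart.

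The subunit genes were higher on the heme diet in both genotypes. In WT mice 23 of the 35 genes rose and 0 fell (median log2 fold change 0.27), and in KO mice 25 rose and 0 fell, with a median of 0.24. A gene was called at a limma adjusted p under 0.01 and a mean signal above 20 in a group of the comparison. Over all 18820 genes 9.60% rose and 8.29% fell in WT mice, and 9.23% rose and 9.20% fell in KO mice, with a median of -0.01 in each. That is 1806 of 3367 calls higher in WT mice and 1738 of 3469 in KO mice, against 1847 of 2995 and 2012 of 3187 with each array centred on its median, which left the counts of the subunit genes within 1.5 times. The subunit genes are among the brighter genes of the array, since their lowest group mean was 177. Among the 6550 genes at least as bright as the dimmest subunit gene, 18.3% rose in each genotype. Single effects ran from -0.01 to 0.66 in WT mice and from -0.02 to 0.56 in KO mice, and the largest, Uqcrq in WT mice, was 1.58-fold. The same 21 genes rose in both genotypes, Uqcr11 and Atp5c1 in WT mice alone, and Cox6c, Atp5b, Atp5e and Atp5h in KO mice alone. A call in one genotype alone does not show a difference between them, and 0 of these genes passed the test of that difference. The genes called in neither were Uqcrb, Cox4i1, Cox6a1, Cox7b, Cox8a, Cox7a2l, Atp5d and Atp5g2. Every heme-fed mouse lay above every control mouse for 21 genes in WT mice and 20 in KO mice, 15 of them in both, against 8.21% and 7.30% of all genes. With the smooth muscle level of each array as a covariate, 14 of the 23 calls in WT mice and 21 of the 25 in KO mice were kept, and the medians were 0.24 and 0.23. In WT mice this level did not overlap between diets, so that the covariate and the diet cannot be fully told apart. Without WT control replicates 1 and 2, an omission chosen after the data were seen, 18 of the 23 calls in WT mice were kept, with a median of 0.26.

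Per mouse, the mean log2 level of the 35 genes is given relative to the mean of the WT control mice. It was -0.04 to 0.05 in WT control mice and 0.22 to 0.36 in WT heme mice. In KO mice it was -0.07 to 0.04 on the control diet and 0.14 to 0.33 on the heme diet. No heme-fed mouse overlapped with a control mouse. The lowest heme-fed mouse was KO heme replicate 1, without which 26 genes rose in KO mice with a median of 0.26. In that mouse the mean log2 level of 10 leukocyte markers was 0.94, against -0.56 to 0.24 in the other 5 KO heme mice, and its part in the low subunit level was not tested. By complex, heme-fed mice stood apart from control mice of their genotype for complex III with cytochrome c, for complex IV and for the ATP synthase. The gap was narrowest for complex IV, where the highest WT control mouse was at 0.08 and the lowest WT heme mouse at 0.10. WT control replicates 1 and 2, with the high smooth muscle levels, had the lowest complex IV levels of their group (-0.10 to -0.09, against 0.03 to 0.08 in the other 3).

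**Figure D1:**
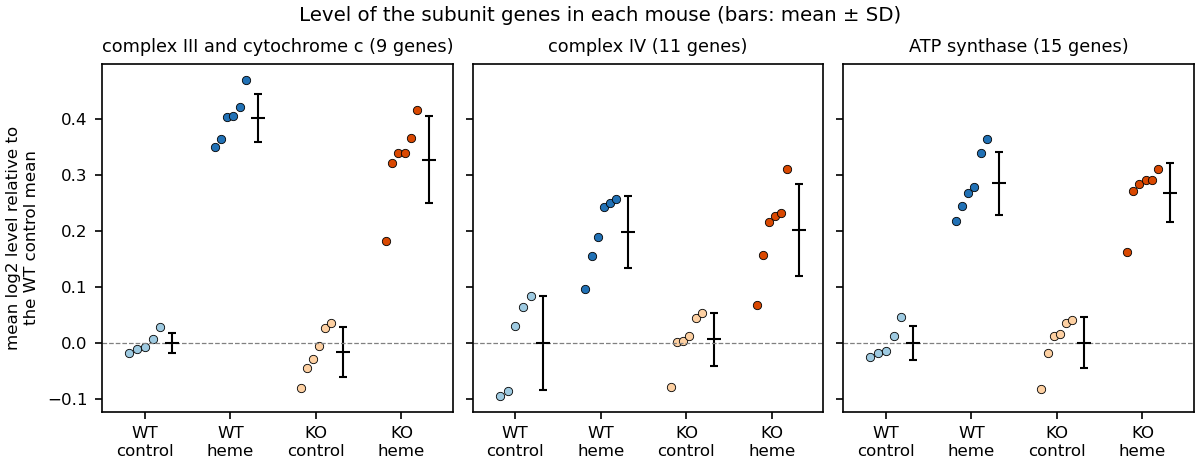
Mean log2 level of the subunit genes of each complex (y axis, relative to the mean of the WT control mice) in each mouse of the 4 groups (x axis), with the group mean ± SD beside the points. All heme-fed mice lie above all control mice of their genotype in each panel, and complex III with cytochrome c shows the widest gap, from 0.03 to 0.35 in WT mice.

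Sequence around the start of these genes was searched for motifs of transcription factors known for control of respiratory genes. NRF1 and the ETS family factor GABP are known for binding promoters of respiratory chain genes, ERRα for working with the coactivator PGC-1α on them, and PPARα for binding direct repeats with 1 base between them. RefSeq promoters (build GRCm38.p6, 250 bases before to 50 after the start) were at hand for 30 of the 37 genes. Both strands were searched, so that a palindromic NRF1 site counts on both and its matches overlap. The NRF1 core, GCGCANGCG, was found in the windows of 11 of the 30 genes (36.7%) and of 7.03% of 27025 genes. The ETS core, CCGGAAG, was found for 10 (33.3%, against 9.93%) and the YY1 motif, AANATGGCG, for 3 (10%, against 2.76%). At least 1 of these motifs was found for 18 of the 30 genes. The NRF1 matches of Atp5g3, Atp5o and Uqcrc1 lay after the start. So did the ETS match of Atp5k and the YY1 matches of Atp5b and Atp5j2. The ERRα motif, TCAAGGTCA, was found for Atp5g3 alone (3.33%, against 0.466%). The Sp1 motif, GGGCGG, was found for 10 genes, at 33.3% a share near that of all genes (38.2%). The direct repeat of AGGTCA with 1 base between was found in 0 of the 30 windows and in 0.0481% of all genes, which says only that these letters are not in the windows. The NRF1 core was found for 6 of 18 genes that rose in both genotypes, for 3 of 5 that rose in one, and for 2 of 6 that rose in neither. A match is a string of letters, and binding was not measured. The 150 bases before the start of 4 genes are shown in the direction of the gene, with matches to the motif named in capitals. They are the genes with the largest mean heme effect among those with a match, other than to Sp1, in these bases. Genes with a larger effect and no such match, among them Uqcrfs1, Cox7a1 and Atp5g1, are not shown. Atp5g3 is the c ring gene with the ERRα motif, Atp5k and Cycs carry the NRF1 core and are described with their complexes, and Atp5e shows the ETS core.

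Atp5g3, c ring gene, minus strand of chr2:73911327-73911476, ERRα motif at -52 to -44, on the opposite strand: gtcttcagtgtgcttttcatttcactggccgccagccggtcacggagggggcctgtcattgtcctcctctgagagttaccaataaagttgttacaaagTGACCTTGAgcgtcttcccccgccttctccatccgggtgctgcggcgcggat
Atp5k, subunit e, minus strand of chr5:108434400-108434549, NRF1 core at -50 to -42 and, on the opposite strand, at -49 to -41: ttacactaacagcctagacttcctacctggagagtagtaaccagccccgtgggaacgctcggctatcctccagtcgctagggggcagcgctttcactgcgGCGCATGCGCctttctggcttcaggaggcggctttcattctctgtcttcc
Cycs, cytochrome c, minus strand of chr6:50566570-50566719, NRF1 core at -61 to -53, on the opposite strand: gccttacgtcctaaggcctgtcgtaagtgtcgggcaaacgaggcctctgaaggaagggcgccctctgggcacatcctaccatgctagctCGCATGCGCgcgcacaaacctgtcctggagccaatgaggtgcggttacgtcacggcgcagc
Atp5e, subunit epsilon, minus strand of chr2:174464102-174464251, ETS core at -102 to -96, on the opposite strand: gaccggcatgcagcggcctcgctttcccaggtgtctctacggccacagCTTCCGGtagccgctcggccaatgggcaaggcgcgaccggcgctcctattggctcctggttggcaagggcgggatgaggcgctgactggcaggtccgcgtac

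Complex III with cytochrome c had the highest median effect of the 3 groups. In WT mice 8 of 9 genes rose and in KO mice 7 of 9 (median log2 fold change 0.38 and 0.36). The core subunits Uqcrfs1, Cyc1 and Uqcrc1 all rose in both genotypes. Uqcrq, a small supernumerary subunit, had the largest mean effect of the 35 genes. In WT control mice its signal was 604, 637, 658, 690.4 and 721.5, and in WT heme mice 990.0 to 1165.5 (median 1021.5). KO control mice had 601 to 769 (median 690.3) and KO heme mice 910.1 to 1038 (median 1022). Neither genotype showed overlap between diets. The log2 fold change was 0.66 (SE 0.06, limma adjusted p = 1.57e-07) in WT mice and 0.55 (SE 0.06, limma adjusted p = 8.28e-07) in KO mice.

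Uqcrfs1, the Rieske iron-sulfur protein, had a signal of 337, 342, 366, 367 and 387 in WT control mice and 514 to 592 (median 547) in WT heme mice. In the KO groups the range was 304 to 349 (median 335) on the control and 388 to 578 (median 495) on the heme diet. All heme-fed mice were again above all control mice, with 1 KO heme mouse, replicate 1, below the other 5. Uqcrfs1 had a log2 fold change of 0.60 (SE 0.07, limma adjusted p = 1.48e-06) in WT mice and 0.56 (SE 0.07, limma adjusted p = 2.19e-06) in KO mice. Cyc1, cytochrome c1, was at 2261, 2277, 2372, 2377.5 and 2507 in WT control and at 3049 to 3499 (median 3292) in WT heme mice. The KO values were 2367 to 2507 (median 2459) on control and 2968 to 3326 (median 3233.5) on heme. The spread within a group was small for this gene, and the diets did not overlap. Cyc1 had a log2 fold change of 0.47 (SE 0.04, limma adjusted p = 4.49e-08) in WT mice and 0.39 (SE 0.04, limma adjusted p = 3.5e-07) in KO mice. Uqcrc1, a core protein, had a log2 fold change of 0.38 (SE 0.05, limma adjusted p = 3.38e-06) in WT mice and 0.36 (SE 0.04, limma adjusted p = 2.58e-06) in KO mice.

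Cycs, the electron carrier between complexes III and IV that also takes part in apoptosis, had a signal of 4174, 4273, 4553, 4796 and 4872 in WT control mice and 5083 to 6092 (median 5670.0) in WT heme mice. KO mice ranged over 3957 to 4773 (median 4431) without heme and 5061 to 5983 (median 5485) with it, again without overlap. On the log2 scale the difference between diets was 0.33 (SE 0.06, limma adjusted p = 0.000423) in WT mice and 0.33 (SE 0.06, limma adjusted p = 0.000247) in KO mice. With the smooth muscle covariate the call of Cycs in WT mice was lost (log2 fold change 0.29, limma adjusted p = 0.0273). Its promoter window holds the NRF1 core shown above. The supernumerary subunits were less uniform. Uqcr10 rose by 0.34 and 0.44 and the hinge protein Uqcrh by 0.18 in each genotype on the log2 scale, and calls of both in WT mice were lost in 15 and 9 of the 23 fits that left out 1 array. Uqcrb, which binds ubiquinone, had the smallest effect of the complex. Its signal was 3459, 3644, 3864, 3924 and 4551 in WT control and 3875 to 5196 (median 4385) in WT heme mice. Among KO mice the controls were at 3611 to 3929.9 (median 3724) and the heme-fed mice at 3769 to 4949.9 (median 4019), so that the diets overlapped in both genotypes. A log2 fold change of 0.18 (SE 0.07, limma adjusted p = 0.0693) in WT mice and 0.14 (SE 0.07, limma adjusted p = 0.16) in KO mice did not pass the test.

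**Figure D2:**
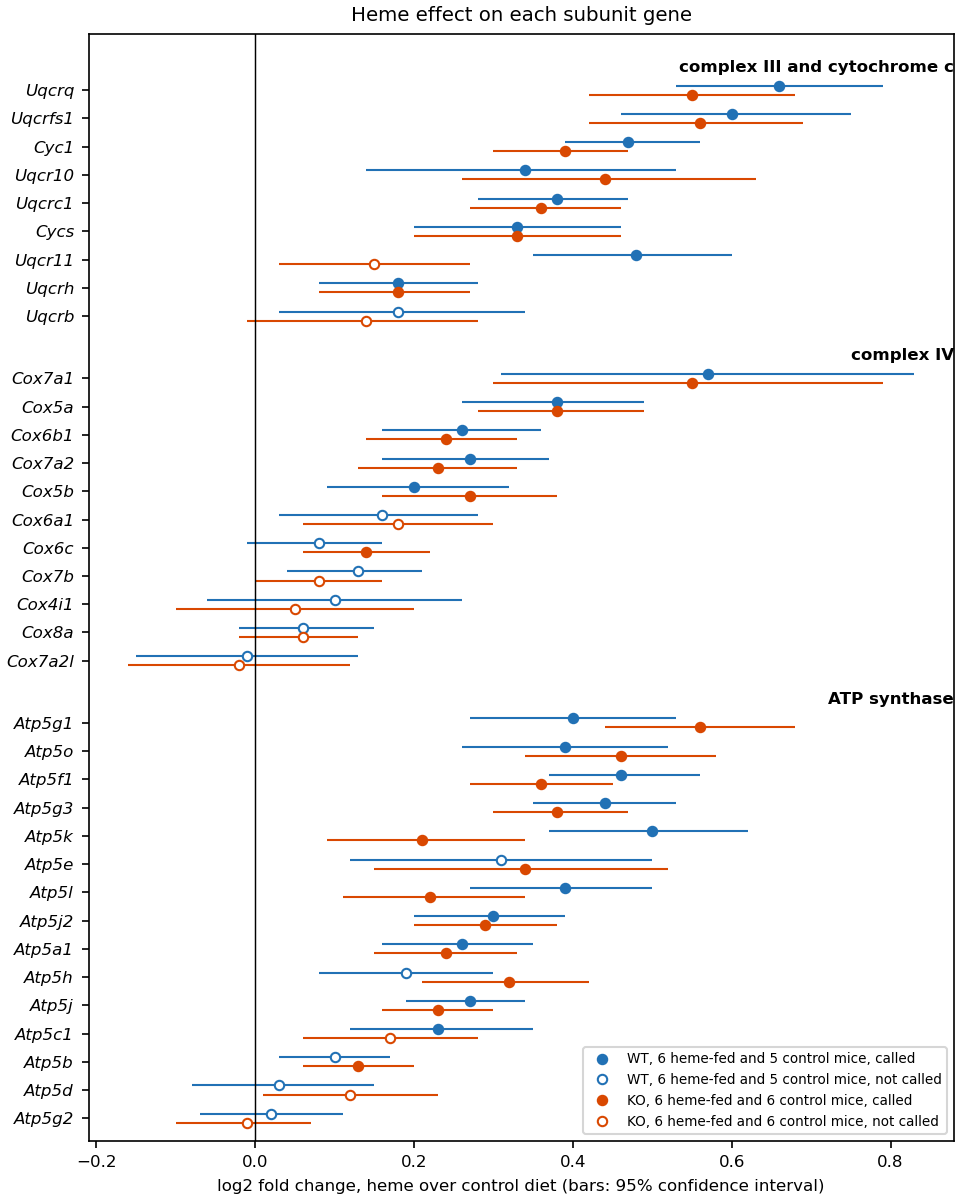
Heme effect as a log2 fold change (x axis) for each of the 35 subunit genes (y axis), ordered by mean effect within each complex, with 95% confidence intervals from limma. Filled points passed the test and open points did not. Effects reach from near 0 for Cox7a2l and Atp5g2 to 0.66 for Uqcrq, and WT and KO intervals overlap for all genes but Uqcr11 and Atp5k.

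Complex IV was more mixed. In WT mice 5 of 11 genes (with Cox7a2l) rose and in KO mice 6 of 11 (median log2 fold change 0.16 and 0.18). Cox7a1, known as the subunit VIIa isoform of heart and skeletal muscle, had the largest effect of the 11 listed genes. In WT control mice its signal was 420.3, 451, 573, 622 and 622, and in WT heme mice 694 to 850.5 (median 809.7). KO control mice had 457 to 539.6 (median 507) and KO heme mice 483.5 to 873 (median 795). The diets did not overlap in WT mice, whereas in KO mice 1 heme-fed mouse, replicate 1, lay within the range of the control mice. For Cox7a1 the log2 fold change was 0.57 (SE 0.13, limma adjusted p = 0.00142) in WT mice and 0.55 (SE 0.12, limma adjusted p = 0.00129) in KO mice, or 0.67 in KO mice without that mouse. With the smooth muscle covariate it was 0.23 in WT mice, and no longer called (limma adjusted p = 0.298), and 0.40 in KO mice (adjusted p = 0.00774). Both WT control mice with high smooth muscle levels had the lowest Cox7a1 signals of their group, and without them the effect in WT mice was 0.38 and not called (limma adjusted p = 0.0454). Of the 8 striated muscle markers 1 fell in WT mice and 0 in KO mice, against 8.29% and 9.20% of all genes.

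Cox7a2, the subunit VIIa isoform of most other tissues, was at 692, 706, 706.5, 722 and 787 in WT control and at 804 to 929.8 (median 865) in WT heme mice. In the KO groups the range was 673 to 742.5 (median 691) on the control and 775 to 897 (median 805) on the heme diet. The diets did not overlap in either genotype, and the log2 fold change was 0.27 (SE 0.05, limma adjusted p = 0.000343) in WT mice and 0.23 (SE 0.05, limma adjusted p = 0.000708) in KO mice. With the smooth muscle covariate the WT call was lost (log2 fold change 0.20, limma adjusted p = 0.0452). The third gene of this family, Cox7a2l, links complexes III and IV in supercomplexes and is not a subunit of either enzyme alone. Its signal was 241, 265, 266, 288 and 298.5 in WT control and 242 to 300.5 (median 270.4) in WT heme mice. The KO values were 252 to 308 (median 283) on control and 242 to 304 (median 282) on heme. Here the diets covered the same range in both genotypes. The log2 fold change was -0.01 (SE 0.07, limma adjusted p = 0.942) in WT mice and -0.02 (SE 0.07, limma adjusted p = 0.862) in KO mice, with 95% confidence intervals of -0.15 to 0.13 and -0.16 to 0.12, and its sign turned under several settings.

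Cox5a, a subunit on the matrix side, had a signal of 639, 689, 699, 701 and 733 in WT control and 829.5 to 983 (median 896) in WT heme mice. KO mice ranged over 627 to 736 (median 695) without heme and 842 to 954 (median 882) with it. The diets did not overlap, and the log2 fold change was 0.38 (SE 0.05, limma adjusted p = 2.18e-05) in WT mice and 0.38 (SE 0.05, limma adjusted p = 9.51e-06) in KO mice. Cox6b1 and the zinc-binding subunit Cox5b also rose in both genotypes (log2 fold change 0.26 and 0.20 in WT mice, 0.24 and 0.27 in KO mice). The other subunits had smaller effects. Cox6c (0.08 in WT mice and 0.14 in KO mice) was called in KO mice, while Cox6a1 (0.16 and 0.18), Cox7b (0.13 and 0.08) and Cox8a (0.06 in each) were called in neither. Cox4i1, the subunit to which ATP binds as a brake on the enzyme, was at 1409.9, 1416, 1673, 1745 and 1893.5 in WT control and at 1566 to 1883 (median 1770.0) in WT heme mice. Among KO mice the controls were at 1537 to 1895 (median 1721) and the heme-fed mice at 1654.5 to 2033 (median 1777), with wide overlap between diets. On the log2 scale the difference between diets was 0.10 (SE 0.08, limma adjusted p = 0.358) in WT mice and 0.05 (SE 0.07, limma adjusted p = 0.69) in KO mice, and the 95% confidence interval in WT mice reached from -0.06 to 0.26. The lowest WT control values were again those of replicates 1 and 2, without which the WT value was -0.03. None of the other 6 isoform genes of the complex (Cox4i2, Cox6a2, Cox6b2, Cox7b2, Cox8b and Cox8c) was called in either genotype by limma, with effects between -0.24 and 0.22 and an unadjusted p under 0.05 for 3 genes in WT mice and 2 in KO mice, against 37.2% and 37.9% of all genes.

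**Figure D3:**
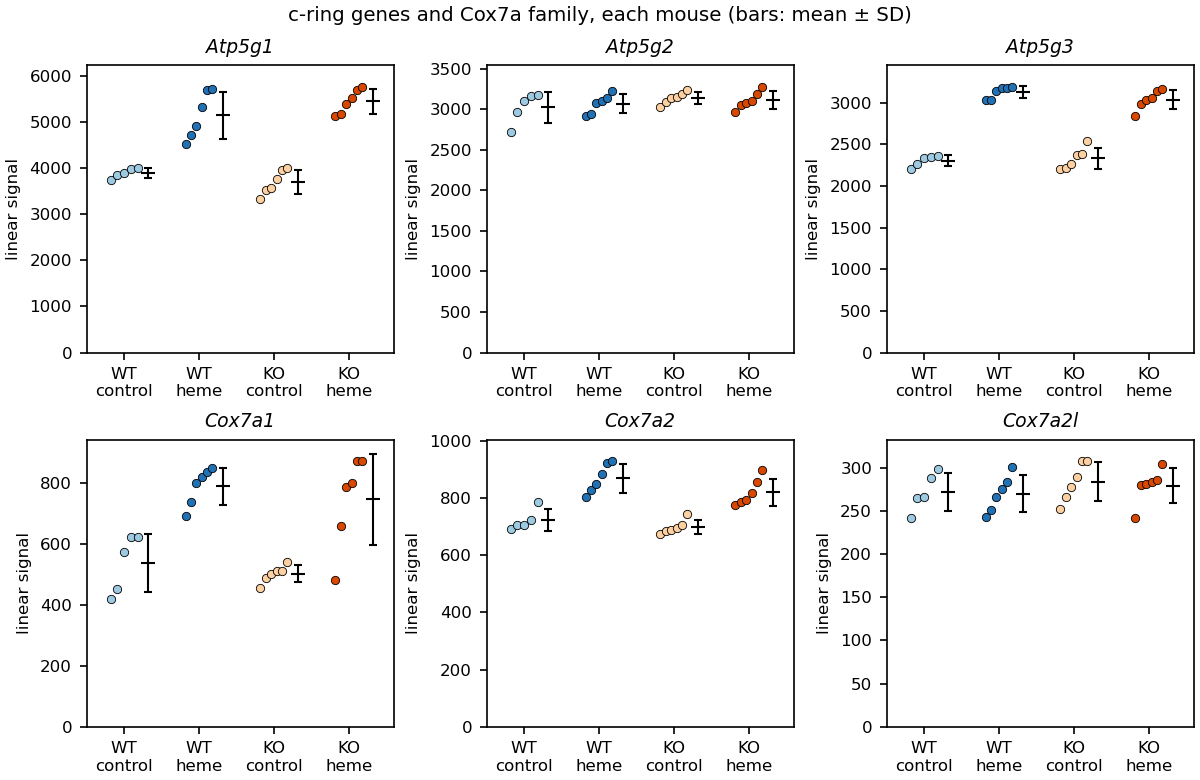
Linear signal (y axis, from 0) of the 3 c ring genes and the 3 genes of the Cox7a family in each mouse of the 4 groups (x axis), with the group mean ± SD beside the points. Atp5g1, Atp5g3, Cox7a1 and Cox7a2 lie higher on the heme diet, while Atp5g2 and Cox7a2l cover the same range on both diets.

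Of the 15 ATP synthase genes 10 rose in WT mice and 12 in KO mice (median log2 fold change 0.30 and 0.24). The c ring genes Atp5g1, Atp5g2 and Atp5g3 encode the same mature c subunit behind different import sequences, and they did not move alike. Atp5g1 had a signal of 3746.5, 3848, 3903.5, 3977 and 3999 in WT control and 4530.1 to 5723 (median 5121) in WT heme mice. KO control mice had 3331 to 4009 (median 3677) and KO heme mice 5130.4 to 5776 (median 5464). Without overlap between diets, the log2 fold change was 0.40 (SE 0.06, limma adjusted p = 4.45e-05) in WT mice and 0.56 (SE 0.06, limma adjusted p = 3.5e-07) in KO mice. Atp5g3 was at 2204, 2270.1, 2334, 2349 and 2365.5 in WT control and at 3033 to 3195 (median 3155) in WT heme mice. In the KO groups the range was 2203 to 2537 (median 2322) on the control and 2837.5 to 3167 (median 3046) on the heme diet. This gene, whose window holds the ERRα motif shown above, had no overlap either, with a log2 fold change of 0.44 (SE 0.04, limma adjusted p = 1.23e-07) in WT mice and 0.38 (SE 0.04, limma adjusted p = 3.81e-07) in KO mice. Atp5g2 was at 2719.8, 2964, 3101, 3167 and 3181 in WT control and at 2923 to 3229.8 (median 3091) in WT heme mice. The KO values were 3032 to 3237 (median 3151) on control and 2973 to 3283 (median 3093.5) on heme. Its diets overlapped over nearly the whole range. The log2 fold change was 0.02 (SE 0.04, limma adjusted p = 0.78) in WT mice and -0.01 (SE 0.04, limma adjusted p = 0.865) in KO mice, with 95% confidence intervals of -0.07 to 0.11 and -0.10 to 0.07. All 3 probe sets of Atp5g2 gave 0.02 to 0.03 in WT mice and -0.02 to -0.01 in KO mice. The windows of Atp5g2 and Atp5g3 both hold the NRF1 core, before the start in Atp5g2 (first match at -42 to -34) and after it in Atp5g3 (14 to 22). Its part in their levels was not tested.

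In the F1 head, which holds the catalytic sites, 2 of 5 genes rose in WT mice and 3 of 5 in KO mice (median log2 fold change 0.23 and 0.17). Atp5a1, the α subunit, had a signal of 2829.6, 2877, 2909, 2960.1 and 3005 in WT control and 3253 to 3742 (median 3537) in WT heme mice. KO mice ranged over 2681 to 3084 (median 2994) without heme and 3259.6 to 3659 (median 3512) with it. The diets did not overlap, and the log2 fold change was 0.26 (SE 0.05, limma adjusted p = 0.000176) in WT mice and 0.24 (SE 0.04, limma adjusted p = 0.000195) in KO mice. Atp5b, the catalytic β subunit, was at 5243, 5405, 5423, 5477 and 5603.5 in WT control and at 5536 to 5991 (median 5846) in WT heme mice. Among KO mice the controls were at 5077 to 5549.8 (median 5369) and the heme-fed mice at 5789 to 5939 (median 5846). The diets overlapped slightly in WT mice and did not in KO mice. Atp5b had a log2 fold change of 0.10 (SE 0.04, limma adjusted p = 0.0386) in WT mice and 0.13 (SE 0.03, limma adjusted p = 0.00632) in KO mice, so that it passed the test in KO mice only, where leaving out any 1 of KO control replicates 1, 4, 5 and 6 or KO heme replicates 2, 4, 5 and 6 ended the call (log2 fold change 0.11 to 0.14 over all omissions). The difference between the genotypes was 0.03 (limma adjusted p = 0.955). The γ subunit gene Atp5c1 rose in WT mice (0.23, against 0.17 in KO mice), and the ε subunit gene Atp5e rose in KO mice (0.34, against 0.31 in WT mice). Atp5d, the δ subunit, was called in neither (0.03 and 0.12).

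The stalk and membrane subunits rose in 6 of 7 genes in WT mice and in 7 of 7 in KO mice (median 0.39 and 0.29). Atp5o, which joins the F1 head to the outer stalk, was at 1516, 1521, 1560.5, 1635 and 1671 in WT control and at 1860.2 to 2319 (median 2035.5) in WT heme mice. KO control mice had 1359.8 to 1694 (median 1622.5) and KO heme mice 2003 to 2260.5 (median 2177). Its diets did not overlap, and the log2 fold change was 0.39 (SE 0.06, limma adjusted p = 5.64e-05) in WT mice and 0.46 (SE 0.06, limma adjusted p = 4.71e-06) in KO mice. The stalk subunit genes Atp5f1 (0.46 in WT mice and 0.36 in KO mice), Atp5j (0.27 and 0.23) and the membrane subunit gene Atp5j2 (0.30 and 0.29) rose in both genotypes. Atp5h, a stalk subunit, had 0.19 in WT mice, which was not called (limma adjusted p = 0.0111), and rose by 0.32 in KO mice. Atp5k and Atp5l, the subunits e and g that link ATP synthase dimers, rose by 0.50 and 0.39 in WT mice and by 0.21 and 0.22 in KO mice. The KO calls of both were lost with the smooth muscle covariate (0.16 and 0.18) and with only the KO groups in the fit, a setting in which 19 of the 25 KO calls were kept.

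Between genotypes no subunit gene was called. Calls were rare over all genes too, at 0.0531% on the control diet, 0.234% on the heme diet and 0.0106% for the difference of the heme effects, so that 0 of 35 is near the background. On the control diet the log2 difference of KO from WT mice was -0.11 to 0.10, with 95% confidence intervals within -0.34 to 0.25, a lowest limma adjusted p of 0.836 and 1 gene with an unadjusted p under 0.05, against 5.74% of all genes. On the heme diet it was -0.29 to 0.09, with a lowest adjusted p of 0.0143 and 4 genes of 35 with an unadjusted p under 0.05, against 12.2% of all genes. The genotype comparisons and the interaction share mice and are not independent of each other. The difference of the heme effects, KO minus WT, had a median of -0.02 and ran from -0.33 to 0.16, with confidence intervals within -0.50 to 0.37. Here 3 genes had an unadjusted p under 0.05, against 6.75% of all genes.

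Uqcr11, a small subunit at the outside of complex III, had the largest difference. In WT control mice its signal was 1454, 1482.5, 1569, 1658 and 1679, and in WT heme mice 2058 to 2472 (median 2147.5). In the KO groups the range was 1527 to 1792 (median 1585) on the control and 1669.9 to 1962 (median 1728) on the heme diet. All WT heme mice lay above all other mice, while KO heme mice overlapped with KO control mice. The log2 fold change on heme was 0.48 (SE 0.06, limma adjusted p = 4.61e-06) in WT mice and 0.15 (SE 0.06, limma adjusted p = 0.0605) in KO mice, and the difference of -0.33 had a 95% confidence interval of -0.50 to -0.16 (SE 0.08, limma adjusted p = 0.369). On the heme diet the log2 difference of KO from WT mice was -0.29 (SE 0.06, limma adjusted p = 0.0143), a value called with trended variances, with the smooth muscle covariate, and without KO heme replicate 3 or 6. Its second probe set gave heme effects of 0.61 in WT mice and 0.22 in KO mice. In the fit on the dimmest probe set of each gene, which for Uqcr11 is this one, the KO effect was called too.

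Atp5k had the next largest difference. Its signal was 166, 166, 169.9, 178 and 203 in WT control and 231 to 277 (median 245) in WT heme mice. The KO values were 174 to 207.5 (median 183) on control and 202 to 239 (median 214) on heme, with overlap in KO mice and none in WT mice. The difference of the heme effects was -0.28 (SE 0.09, limma adjusted p = 0.505). For Atp5l the difference was -0.16 (SE 0.08, limma adjusted p = 0.736), and for Atp5g1, in the other direction, 0.16 (SE 0.09, limma adjusted p = 0.758). None of these passed the test.

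Cox7c and Uqcrc2 were measured on shared probe sets. The 3 probe sets of Cox7c, which also name Gm10012, gave log2 differences of 0.08 to 0.09 between diets in WT mice and 0.07 to 0.08 in KO mice. Of the 2 probe sets of Uqcrc2, a core subunit of complex III, which also name Pdzd9, the bright one gave 0.19 in WT mice and 0.26 in KO mice. Its signal was 3309, 3339, 3412, 3430.3 and 3455 in WT control and 3699 to 3948 (median 3911) in WT heme mice, and 3149.7 to 3328 (median 3267) in KO control and 3736 to 4096 (median 3881) in KO heme mice, without overlap between diets. The other probe set was at 20.9 to 26.9 in all mice and gave -0.05 and -0.06. Among the 16 genes with several probe sets of their own, the heme effects of these agreed within 0.12, with the exception of Cycs (0.33 to 0.62 in WT mice), Uqcrh (0.00 to 0.18) and Uqcr11 (0.48 to 0.61). The deviating probe sets of Cycs and Uqcrh were dim, with signals under 70.

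Genes of the other respiratory complexes, of assembly and of mitochondrial content were counted in the same way. Over all genes 9.60% rose and 8.29% fell in WT mice, and 9.23% rose and 9.20% fell in KO mice. Of 35 complex I genes 25 rose in WT mice, 23 did so in KO mice, and 0 fell (median log2 fold change 0.32 and 0.25). Ndufb6, a complex I subunit, had 0.69 (SE 0.05, limma adjusted p = 3.87e-09) in WT mice and 0.63 (SE 0.05, limma adjusted p = 6.35e-09) in KO mice. Ndufa4, which was counted with complex I as in older annotation but is found in complex IV, rose by 0.81 and 0.55. For complex II, 3 of 6 genes rose in WT mice and 4 in KO mice (median 0.29 in each), with Sdhd at 0.42 in each. Genes of mitochondrial content and structure rose in 15 of 18 cases in WT mice and in 14 of 18 in KO mice (median 0.28 and 0.30). These included Tomm40, the channel of the outer membrane import machinery (0.69 and 0.68), Phb, an inner membrane scaffold (0.55 and 0.53), and Slc25a4, an ADP/ATP carrier (0.47 and 0.56). Ckmt2, the sarcomeric form of mitochondrial creatine kinase, was dim, with 28.1, 28.3, 31.3, 33.0 and 35.3 in WT control and 43.5 to 78.1 (median 55.8) in WT heme mice. It had 30.6 to 34.8 (median 32.6) in KO control and 33.5 to 79.8 (median 58.9) in KO heme mice, overlapping in KO mice only, and rose by 0.90 and 0.76.

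**Figure D4:**
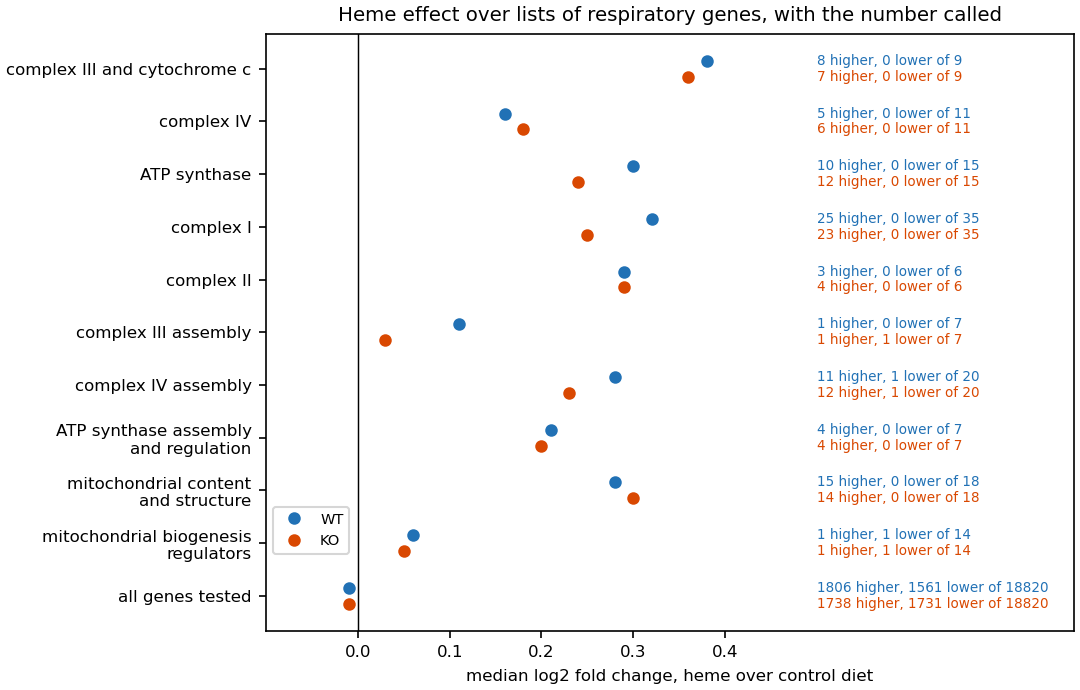
Median heme effect as a log2 fold change (x axis) over lists of respiratory genes and over all genes tested (y axis), for WT and KO mice, with the number called higher and lower of the number measured. The subunit lists lie between 0.16 and 0.38 and all genes at -0.01.

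Assembly factors moved in both directions. For complex IV 11 of 20 factors rose in WT mice, 12 did so in KO mice, and 1 fell in each, with a median of 0.28 and 0.23. Cmc2 (0.50 and 0.61), Coa7 (0.43 and 0.40) and Cox10, which starts the synthesis of heme a from heme (0.41 and 0.35), rose in both genotypes. Cox15, which completes heme a, rose in KO mice (0.18, against 0.12 in WT mice, which was not called). Cox20, a chaperone of the mitochondrially encoded subunit Cox2, was the factor that fell. Its signal was 827, 855, 861, 876 and 936 in WT control and 578 to 712 (median 611) in WT heme mice. KO mice ranged over 785 to 879.6 (median 809.8) without heme and 573 to 694.5 (median 642) with it, without overlap between diets. Cox20 had a log2 fold change of -0.46 (SE 0.06, limma adjusted p = 3.77e-06) in WT mice and -0.36 (SE 0.06, limma adjusted p = 4.25e-05) in KO mice. For complex III 1 of 7 factors rose in each genotype, Uqcc2 (0.47 in each), and Uqcc3 fell in KO mice (-0.27, against -0.07 in WT mice, which was not called). These counts for complex III are near the shares of all genes. Hccs, which attaches heme to cytochromes c and c1, had 0.40 in WT mice (limma adjusted p = 0.0119) and 0.04 in KO mice, and was called in neither. Of the 7 genes of ATP synthase assembly and regulation 4 rose in each genotype, among them the small subunit gene Atp5md (0.53 and 0.38), the F1 assembly factor Atpaf2 (0.33 and 0.24) and Atpif1, the inhibitor of ATP hydrolysis (0.15 and 0.20).

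Of 14 regulators of mitochondrial biogenesis 1 rose and 1 fell in each genotype, with a median of 0.06 and 0.05. These counts are near the shares of all genes (9.60% higher and 8.29% lower in WT mice, 9.23% and 9.20% in KO mice). Ppargc1a, which encodes the coactivator PGC-1α, fell. Its signal was 1294, 1398, 1416, 1580.1 and 1708 in WT control and 697 to 1108 (median 995) in WT heme mice. Among KO mice the controls were at 1283 to 1565.5 (median 1375) and the heme-fed mice at 641 to 948 (median 771). The diets did not overlap, and the log2 fold change was -0.66 (SE 0.11, limma adjusted p = 0.000125) in WT mice and -0.85 (SE 0.11, limma adjusted p = 3.95e-06) in KO mice. The gene that rose was Polrmt, the mitochondrial RNA polymerase (0.26 and 0.20). Esrra, the gene of ERRα, had 0.25 and 0.23 (limma adjusted p = 0.0154 and 0.0205), and Tfam, which packs mitochondrial DNA, 0.26 and 0.13 (adjusted p = 0.0148 and 0.225), and neither was called. Nrf1 (0.07 and 0.14), Gabpa (0.04 and -0.09) and Ppargc1b (0.20 and 0.12) were not called either. The 13 mitochondrially encoded subunits were not analysed here.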

How the data were processed

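The authors hybridised RNA of scraped colon mucosa to Affymetrix arrays and deposited log2 expression values after RMA normalization. The version of RMA was not given in the sources used here. Their text names redefined probe sets, whereas the identifiers in the file are Affymetrix transcript clusters. Of 35556 probe sets, 21218 name a single gene, 1881 several and 12457 none. Genes were named through the platform annotation and Entrez numbers (RefSeq; 21185 matched), and the brightest single-gene probe set represented each of 18820 genes. Groups came from the labels. A linear model over the 4 groups was fitted with limma 3.58.1 (R 4.3.3) and p-values were adjusted by Benjamini-Hochberg over all genes. Calls needed an adjusted p under 0.01 and a group mean signal above 20, the thresholds of the study. Arrays carry no read depth, and precision rests on 5 or 6 mice a group. Members and lists were chosen with earlier results of these data known. Subunits were named by size of the mean heme effect (the 3 largest and the smallest of each complex), by test and by role, and other genes as up to 3 called members of each list or by role. The scripts were tested on simulated data. Alternatives were other filters, centring, array weights, variance models, probe set choices, a threshold of 0.05, a smooth muscle covariate, a replicate block and leaving out each array or, chosen after the data were seen, both WT control arrays with high smooth muscle levels. The Promega and Qiagen columns named in different sources were not reconciled. Tables were handled with Python 3.11.15, pandas 2.3.3 and numpy 2.4.6, and plots drawn with matplotlib 3.10.9.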

Additional observations from a re-analysis of the deposited data

Results flagged for a closer look

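Within groups, 12 of 156 tested sets of values held 1 mouse whose gap to the nearest other mouse was above Dixon's critical value, where chance gives about 1 in 20 for a single set. The number after each gene is that gap as a share of the range of the group. The sets come from the same mice, and some are means of the same genes, so that they are not independent and 12 of 156 cannot be set against chance. KO heme replicate 1 was the lowest mouse of its group for Uqcrq (0.797), Uqcr10 (0.688), Cox5b (0.625) and Cox7a2l (0.635). It was also lowest for the mean of the ATP synthase genes (0.730; log2 level 0.16 against 0.27 for the next mouse) and for the mean of all 35 genes (0.636; 0.14 against 0.26). KO control replicate 4 was lowest for Cox5b (0.891), Atp5a1 (0.696) and Atp5d (0.740). The other mice were WT control replicate 4, highest for Cox5b (0.760), WT heme replicate 2, highest for Uqcr11 (0.648), and KO heme replicate 6, highest for Uqcrb (0.675). KO heme replicate 1 also had the highest leukocyte marker level of its group (mean log2 level 0.94, against -0.56 to 0.24). The part of this in these values was not tested.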

How the results depend on the processing

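With the smooth muscle level as a covariate, 14 of the subunit genes rose in WT mice, with the calls of Uqcrh (0.23), Uqcr10 (0.36), Cox5b (0.21), Cox6b1 (0.24), Cycs (0.29), Cox7a2 (0.20), Atp5c1 (0.18), Atp5l (0.29) and Cox7a1 (0.23) lost. The value in brackets is the log2 fold change with the covariate, which fell by over 1.5 times for Cox7a1 alone. In WT mice the smooth muscle level did not overlap between diets (-0.60 to 0.87 on control, -1.25 to -0.73 on heme). The covariate and the diet thus cannot be fully told apart there, and a lost call does not show a part of smooth muscle. In KO mice Atp5b (0.13), Atp5k (0.16), Atp5l (0.18) and Cox6c (0.11) were lost, and over all genes calls in WT mice numbered 1257 against 3367. In the comparison of KO with WT mice on the heme diet, 1 subunit gene, Uqcr11, was called with trended robust variances, at an adjusted p under 0.05, with the covariate, and without KO heme replicate 3 or 6, a range of 0 to 1 over all single omissions. Over all genes that comparison gave 44 calls, 17 with only the groups compared, 70 with array weights and 148 at an adjusted p under 0.05, the last a threshold at which the heme effect gave 5092 calls in WT and 5235 in KO mice, against 3367 and 3469.

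The signs that turned belonged to effects near 0. Cox7a2l in WT mice came to 0.02 with arrays centred, 0.01 with array weights, 0.02 with the mean of its probe sets, 0.06 with the dimmest, and -0.05 to 0.02 over single omissions. In KO mice it came to 0.02 with arrays centred, 0.01 with the dimmest probe set and -0.05 to 0.02 over single omissions. Atp5g2 came to -0.03 with the covariate and -0.02 to 0.04 over omissions in WT mice, and to 0.03 with arrays centred and -0.03 to 0.0003 over omissions in KO mice. Cox4i1 came to -0.03 in WT mice and -0.01 in KO mice with the covariate. Without WT control replicates 1 and 2, a setting chosen after the data were seen, Atp5g2 came to -0.04 and Cox4i1 to -0.03 in WT mice, the calls of Atp5c1, Cox5b, Cox7a1, Uqcr10 and Uqcrh were lost, and all genes gave 1826 calls in WT mice. The cause was not tested.

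With only the groups compared 20 genes rose in WT mice and 19 in KO mice, where Atp5b, Atp5e, Atp5k, Atp5l, Cox6c and Uqcrh were lost. Leaving out 1 array gave 19 to 24 genes that rose in WT mice and 21 to 26 in KO mice, with 0 that fell. Of the calls, 19 of 23 in WT mice and 20 of 25 in KO mice were kept in all 23 such fits. Lost in some were, in WT mice, Uqcr10 (15 fits), Uqcrh (9), Cox5b (8) and Atp5c1 (without WT control replicate 1 or 2), and in KO mice Cox6c (14), Atp5k (10), Uqcrh (9), Atp5b (8) and Atp5e (7). Gained were Cox7b in WT mice without WT heme replicate 1, Atp5h in WT mice without WT or KO heme replicate 1, Atp5e in WT mice without WT heme replicate 2 or KO control replicate 4, and Atp5c1 in KO mice without KO control replicate 5 or KO heme replicate 1. Deviations from the group mean correlated at a mean of 0.042 (-0.27 to 0.287) over 33 pairs of mice with the same replicate number in different groups. Over 165 pairs with other numbers the mean was -0.00826 (-0.445 to 0.414). Whether same-numbered mice share more than a number cannot be told from this. With the replicate block 20 of the 23 calls in WT mice and 20 of the 25 in KO mice were kept. Small effects were limited by group size, with standard errors of 0.034 to 0.125 for the heme effects.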
